A study of Mus musculus with 20 samples.

Results

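The genes described here are the fatty acid elongases and desaturases of mouse liver and the enzymes that complete the elongation cycle. They were chosen by name: Elovl1, Elovl2, Elovl3, Elovl5, Fads1, Fads2, Fads3, Scd2, Hacd3 and Tecr, 10 of the 54532 genes in the deposited count table. All 10 passed the filter on low counts, which kept the 12289 genes with 2 or more CPM (counts scaled for library size) in 3 or more mice. Other genes of the same reactions, among them Scd1 and Elovl6, are given as context.

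Liver RNA was sequenced from 20 male C57BL/6 mice, 5 in each of 4 groups, with 1 library per mouse. Every mouse had been made obese by 12 weeks of high-fat diet (HFD) and had then been operated on, either by Roux-en-Y gastric bypass (RYGB), which reroutes food past most of the stomach and the upper small intestine, or by a sham operation. For the next 8 weeks the mice ate chow (Sham Chow and RYGB Chow) or HFD (Sham HFD and RYGB HFD). The study describes the transcriptomes as those of the fasted state. No group was lean throughout or went without an operation, and body weight, which the study describes as highest in Sham HFD, cannot be told apart from the group here. Each mouse had between 14604854 and 22537498 counts in all, with a median of 19056997. The summed level of 5 hepatocyte markers (Alb, Ttr, Apoa1, Cyp2e1 and Serpina1a) lay between 71676.5 and 124053 CPM in the 20 mice. It ran from 80935.6 to 100380 CPM in Sham Chow and from 74211.4 to 124053 in RYGB Chow. In Sham HFD it ran from 71676.5 to 84609.5 CPM, wholly below RYGB HFD at 100976 to 119393. Most of this sum was Alb, since the Sham HFD means of the other 4 markers ran from 1336 (Serpina1a) to 7225 CPM (Cyp2e1). Ttr went the other way, with a mean of 5586 CPM in Sham HFD and 4084 in RYGB HFD. In bulk RNA, fewer cells of a type and less RNA per cell cannot be told apart.

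Fatty acids are lengthened in the endoplasmic reticulum by a cycle of reactions. An elongase of the Elovl family condenses the acyl chain with malonyl-CoA and sets the choice of substrate, Hsd17b12 carries out the first reduction, a dehydratase of the Hacd family (Hacd3 is the one abundant in many tissues) removes water, and Tecr, the trans-2-enoyl-CoA reductase, closes the cycle. Elovl1 and Elovl3 act on saturated and monounsaturated chains, with Elovl1 making the very long chains of sphingolipids, while Elovl5 and Elovl2 lengthen polyunsaturated chains in turn on the way to docosahexaenoic acid. Desaturases insert double bonds: Fads2 is the delta-6 and Fads1 the delta-5 desaturase of the polyunsaturated pathway, Fads3 acts on the sphingoid base of ceramides, and Scd2 is a stearoyl-CoA desaturase, a paralog of the main liver enzyme Scd1. In liver, the transcription factor SREBP-1c (from Srebf1) is a known activator of several of these genes, and Elovl3 is known to differ between the sexes and over the day.

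Of the 10 members, 5 lie on chromosome 19 (GENCODE M21, build GRCm38): Fads3 from 10041569 to 10060110, Fads2 from 10062765 to 10101746, Fads1 from 10182888 to 10196877, Scd2 from 44293674 to 44306864 and Elovl3 from 46131897 to 46135694. The 3 Fads genes are neighbours, with Fads2 on the minus strand and the others on the plus strand. Elovl5 (77917364 to 77984519) and Hacd3 (64986983 to 65021693) lie on chromosome 9, Elovl1 (118428093 to 118432953) on chromosome 4, Elovl2 (41182381 to 41220405) on chromosome 13 and Tecr (83571698 to 83607971) on chromosome 8. Members can share reads with near-identical copies. Of all 50-base stretches in their transcripts, 3.97% of Scd2 (mostly with Scd1) and 6.18% of Tecr (mostly with the pseudogene Gm48016) occur in another gene, against 0.152% or less in each of the other 8, so the values of Scd2 and Tecr are the less certain ones.

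The 250 bases before the start site of Elovl5, whose Sham HFD levels lay apart from all other groups, and of Elovl1, whose levels varied little, are shown side by side. They were picked by these levels, so their contrast is 1 gene against 1 and no test of a motif. RefSeq (build GRCm38.p6) gives them at chr9:77917115-77917364 and chr4:118427843-118428092, both on the plus strand, and promoter sequences for 7 of the 10 members were matched there. Elovl3, Fads1 and Scd2 had no match and were not searched, though each was called in Sham Chow vs. Sham HFD. Capitals mark CCAAT, the core of NF-Y sites, and CACGTG, an E-box, on either strand (CCAAT on the minus strand reads ATTGG).
Elovl5: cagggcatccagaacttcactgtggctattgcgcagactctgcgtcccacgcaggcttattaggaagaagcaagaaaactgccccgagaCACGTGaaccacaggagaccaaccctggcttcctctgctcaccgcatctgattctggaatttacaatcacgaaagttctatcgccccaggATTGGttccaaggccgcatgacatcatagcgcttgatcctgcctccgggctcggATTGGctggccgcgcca
Elovl1: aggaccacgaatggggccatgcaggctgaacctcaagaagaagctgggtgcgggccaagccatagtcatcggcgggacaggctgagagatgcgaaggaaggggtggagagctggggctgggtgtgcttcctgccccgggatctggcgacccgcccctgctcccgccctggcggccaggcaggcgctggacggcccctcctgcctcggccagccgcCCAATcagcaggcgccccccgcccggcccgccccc
The Elovl5 stretch is 55.6% G and C and holds 2 CCAAT motifs, both on the minus strand, and 1 CACGTG. The Elovl1 stretch is 72.0% G and C and holds 1 CCAAT and 0 CACGTG. Of all 32851 RefSeq promoters (250 bases before to 50 after the start), 37.4% hold CCAAT and 7.15% CACGTG on either strand. The other motifs searched were GGGCGG, the GC box (35.7% of all promoters), AGGTCA, a nuclear receptor site (16.3%), and TCACNCCA, a core of sterol regulatory elements (4.36%). Matches were counted on both strands, and neighbouring matches of different motifs can share letters, as AGGTCA and TCACNCCA do at their ends. TCACNCCA and AGGTCA were found in 0 of the 7 members' promoters, GGGCGG in those of Elovl1, Elovl2, Fads2, Fads3, Hacd3 and Tecr, and CACGTG in those of Elovl5 and Hacd3. CCAAT was found in those of Elovl1, Elovl5, Fads3, Hacd3 and Tecr. Hacd3, called in no comparison by edgeR, thus held both CCAAT and CACGTG, as Elovl5 did. The RefSeq start used lies 13480 bases inside the GENCODE gene for Tecr and 243 for Fads2. The bases before the GENCODE start of these genes were thus not the ones searched. The counts of 0 do not speak for Elovl3, Fads1 and Scd2. These are matches of letters and no measure of binding.

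Levels between genes were compared per kilobase of exon (CPM per kilobase). In Sham Chow livers Elovl5 was the most abundant member at 202 ± 31.6 CPM per kilobase (SD, n = 5), followed by Elovl2 at 190 ± 48.9, Fads2 at 146 ± 17.3, Elovl3 at 135 ± 37.1 and Fads1 at 129 ± 13.3, and the ranges of the mice overlapped between each of these neighbours. Tecr at 80.5 ± 9.01 and Hacd3 at 75.0 ± 4.79 came next and overlapped each other, below all Fads1 values. Elovl1 at 13.0 ± 0.486, Fads3 at 7.32 ± 3.19 and Scd2 at 0.709 ± 0.107 closed the order without overlap. The genes of the polyunsaturated pathway and Elovl3 thus held the top 5 ranks in Sham Chow. In Sham HFD, Elovl3 stood at 36.0 ± 6.36 CPM per kilobase, the 7th place, below every Tecr value, and Elovl5 at 360 ± 62.3, while in RYGB HFD Elovl2 had 266 ± 39.5 and Elovl3 at 94.0 ± 87.8 spanned its neighbours. The order of the highest members depended on the length used. By the longest transcript in place of all exons, Elovl5 came first in RYGB HFD at 292 before Elovl2 at 274, and Fads1 was the third in the other 3 groups.

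**Figure D1:**
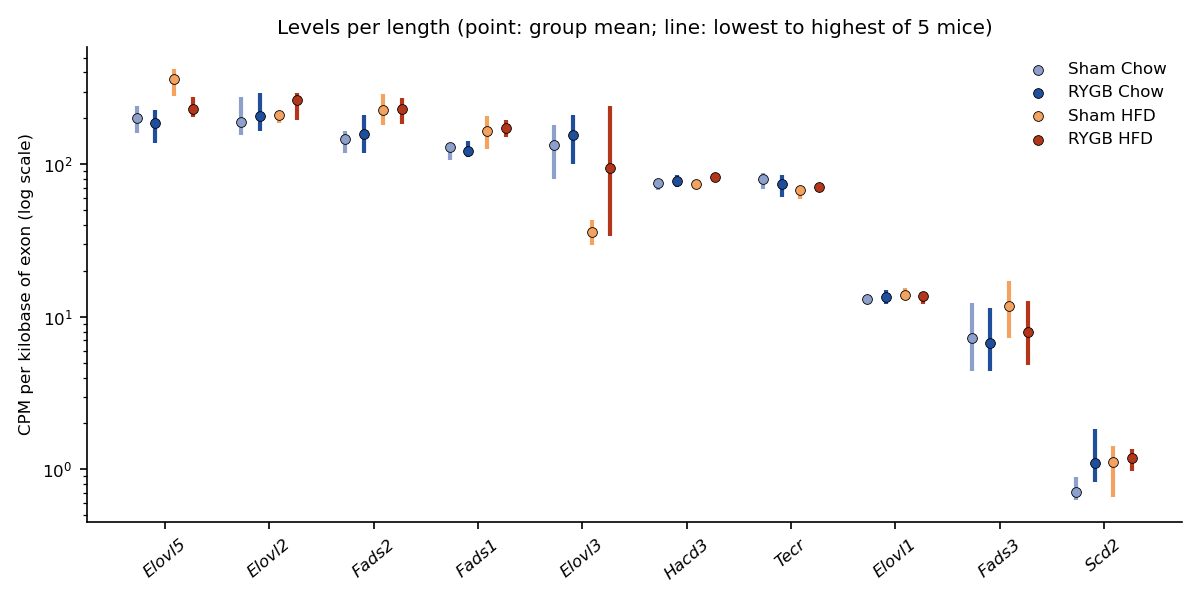
CPM per kilobase of exon (log axis) of the 10 members in the 4 groups, with points for group means and lines from the lowest to the highest of 5 mice. Elovl5, Elovl2 and Fads2 have the highest 3 means in each group on this scale of all exons (by the longest transcript, in RYGB HFD alone), and the mean of Elovl3 is 135 in Sham Chow and 36.0 in Sham HFD.

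Each member was tested in 4 comparisons, named as reference group vs. other group, with edgeR's quasi-likelihood test and Benjamini-Hochberg adjustment over all 12289 genes, and was called at an adjusted p under 0.05. The comparisons share groups (each group enters 2 of them), so they are not independent of each other. In Sham Chow vs. Sham HFD, 4 members were higher and 1 lower in Sham HFD, where 21.6% of all tested genes were called. In RYGB Chow vs. RYGB HFD, 2 members were higher in RYGB HFD and 0 lower, against 3.65% of all genes called. In Sham HFD vs. RYGB HFD, 1 member was higher and 1 lower after surgery, with 16.4% of all genes called. In Sham Chow vs. RYGB Chow, edgeR called 0 members, as did DESeq2 and limma-voom, and 1 (Scd2) had an unadjusted p under 0.05, where 0.0570% of all genes were called. The median log2 fold change of the 10 members was 0.25 in Sham Chow vs. Sham HFD, 0.17 in RYGB Chow vs. RYGB HFD, 0.07 in Sham HFD vs. RYGB HFD and 0.05 between the chow groups, beside medians within 0.01 of 0 over all tested genes.

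**Figure D2:**
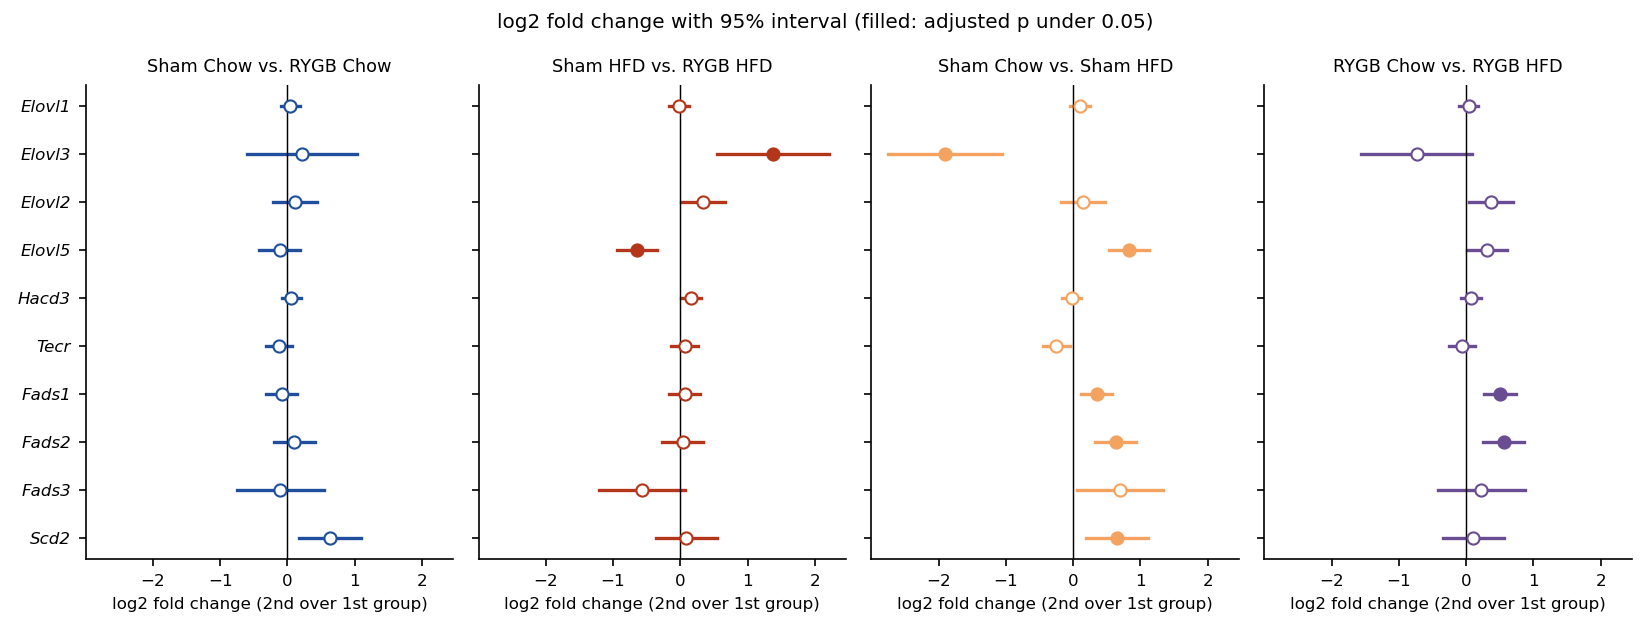
log2 fold change of each member (second group over the first) with its 95% interval in the 4 comparisons, filled where the adjusted p is under 0.05. The filled points are Elovl3, Elovl5, Fads1, Fads2 and Scd2 in Sham Chow vs. Sham HFD, Fads1 and Fads2 in RYGB Chow vs. RYGB HFD, and Elovl3 and Elovl5 in Sham HFD vs. RYGB HFD.

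In the same order as above, the 5 mice of the other group lay wholly above or below those of the reference for 3 members in Sham Chow vs. Sham HFD (16.5% of all tested genes), 1 in RYGB Chow vs. RYGB HFD (5.05%), 1 in Sham HFD vs. RYGB HFD (14.7%) and 0 in Sham Chow vs. RYGB Chow (1.33%). The 3 were Elovl3, Elovl5 and Fads2, and the others were Fads1 and Elovl5.

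Elovl3, the elongase of saturated and monounsaturated chains, was lower in Sham HFD than in Sham Chow. Its levels were 254, 261, 358, 158 and 301 CPM in the Sham Chow mice and 64.7, 63.6, 85.7, 83.5 and 58.1 in the Sham HFD mice, in order of replicate number. No value of Sham HFD reached the lowest of Sham Chow, and the log2 fold change was -1.91 (standard error, SE, 0.41, adjusted p = 0.00249). The RYGB Chow mice, at 323, 416, 198, 252 and 357 CPM, overlapped Sham Chow (log2 fold change 0.22, 95% interval -0.60 to 1.03).

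In RYGB HFD, Elovl3 stood at 67.2, 91.3, 80.6, 211 and 478 CPM. Replicates 4 and 5 were far above the rest, of which replicates 1 and 3 lay within the Sham HFD range and replicate 2 just above it. The mean was thus above that of Sham HFD, at 1.38 on the log2 scale (SE 0.40, adjusted p = 0.0211), with overlapping groups and an exact permutation p of 0.0714 (two-sided). Without RYGB HFD replicate 5 the log2 fold change was 0.66 and the adjusted p 0.133, and without Sham HFD replicate 5 they were 1.32 and 0.0525. Against RYGB Chow, RYGB HFD was at a log2 fold change of -0.74 (adjusted p = 0.326), which was not called, and became -1.46 (adjusted p = 0.00855), past the threshold, without RYGB HFD replicate 5. The call in Sham HFD vs. RYGB HFD was thus lost without replicate 5 of either group, and also in a model of only these 2 groups (adjusted p = 0.0527).

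Genes known to be higher in male than in female mouse liver also differed between these groups. The 6 such genes listed were Cyp4a12a, Cyp7b1, Hsd3b5, Cyp2d9, Mup20 and Selenbp2. Of these, 6 were called lower in Sham Chow vs. Sham HFD (21.6% of all tested genes called) and 4 higher in Sham HFD vs. RYGB HFD (16.4%). In RYGB Chow vs. RYGB HFD (3.65%), 1 of the 6 (Cyp4a12a) was called lower. Between the chow groups, 0 were called by edgeR, DESeq2 or limma-voom, and 0 had an unadjusted p under 0.05. Cyp7b1, the oxysterol hydroxylase, had 275 ± 95.9 CPM for Sham Chow, 75.8 ± 23.98 for Sham HFD and 230 ± 73.5 for RYGB HFD (SD, n = 5 each). Cyp4a12a, a fatty acid hydroxylase, had 236 ± 45.7 CPM for Sham Chow, 40.2 ± 13.0 for Sham HFD and 58.1 ± 28.1 for RYGB HFD. For Cyp7b1 all RYGB HFD mice (173 to 354 CPM) lay above all Sham HFD mice (52.1 to 114), where Elovl3 overlapped. For Cyp4a12a these groups overlapped too (27.9 to 85.8 and 19.2 to 50.7 CPM). Of 13 tested clock genes, 1 was called in Sham HFD vs. RYGB HFD (Nr1d1, a repressor of the daily clock, log2 fold change 0.42, adjusted p = 0.0376), and the log2 fold changes of all 13 were above 0 there, with a median of 0.25. In the other 3 comparisons 0 clock genes were called by edgeR, DESeq2 or limma-voom, and an unadjusted p under 0.05 was found for 1 in each of the chow against HFD comparisons and for 0 between the chow groups. The part of either group of genes in the Elovl3 result was not tested.

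Elovl1, which makes very long chains for sphingolipids, was at about the same level in each group, with 35.4 ± 1.33 CPM for Sham Chow, 36.6 ± 3.13 for RYGB Chow, 38.0 ± 2.57 for Sham HFD and 37.5 ± 2.63 for RYGB HFD (SD, n = 5 each). Its 20 values ran from 33.1 to 41.9 CPM, and the 95% intervals of its 4 log2 fold changes stayed between -0.16 and 0.25. With scaling by library size only, its log2 fold change in Sham Chow vs. Sham HFD was 0.23 in place of 0.10 and was called (adjusted p = 0.0451). Within a mouse, Elovl3 counts exceeded Elovl1 counts by a geometric mean ratio of 7.26 for Sham Chow, 8.20 for RYGB Chow, 1.85 for Sham HFD and 3.68 for RYGB HFD. The log2 ratio ran from 2.08 to 3.29 in Sham Chow and from 0.47 to 1.25 in Sham HFD, without overlap.

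Elovl5, the elongase of shorter polyunsaturated chains, was higher in Sham HFD than in both groups it was compared with. Sham Chow mice had 632, 772, 845, 744 and 567 CPM, Sham HFD mice 983, 1426, 1494, 1095 and 1339, and RYGB HFD mice 715, 752, 968, 732 and 899. Every Sham HFD mouse thus lay above every mouse of these groups. Elovl5 rose 1.78-fold from Sham Chow to Sham HFD (log2 fold change 0.83, SE 0.15, adjusted p = 4.6e-04) and was 0.641 times as high in RYGB HFD as in Sham HFD (log2 fold change -0.64, SE 0.14, adjusted p = 0.00417). Both differences kept their call with each mouse left out in turn. RYGB Chow mice had 796, 630, 601, 487 and 769 CPM and RYGB HFD overlapped them (log2 fold change 0.31, adjusted p = 0.252), as they did Sham Chow (log2 fold change -0.12, 95% interval -0.42 to 0.18).

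Elovl2, the elongase that acts after Elovl5, was called in no comparison by edgeR in the model of all 4 groups. Its levels were 755 ± 194 CPM for Sham Chow, 817 ± 202 for RYGB Chow, 833 ± 63.5 for Sham HFD and 1054 ± 157 for RYGB HFD (SD, n = 5 each). In RYGB HFD 4 mice, between 1087 and 1169 CPM, lay above all Sham HFD mice and 1, at 779, lay among them (log2 fold change 0.34, 95% interval 0.01 to 0.67, adjusted p = 0.152). In a model of only these 2 groups this difference was called (0.33, adjusted p = 0.0383). Against RYGB Chow the log2 fold change was 0.37 (95% interval 0.04 to 0.70, adjusted p = 0.214), and against Sham Chow Sham HFD was at 0.14 (-0.19 to 0.47).

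The log2 ratio of Elovl2 to Elovl5 counts within a mouse does not depend on how libraries are scaled. It was -0.59 ± 0.16 in Sham HFD, 0.07 ± 0.33 in Sham Chow, 0.31 ± 0.50 in RYGB Chow and 0.37 ± 0.23 in RYGB HFD (SD, n = 5 each). The Sham HFD values, from -0.80 to -0.40, lay below the lowest value of any other group, which was -0.27 in Sham Chow. Elovl2 counts were thus fewer than Elovl5 counts in every Sham HFD mouse and more in every RYGB HFD mouse, where the ratio ran from 0.12 to 0.67.

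**Figure D3:**
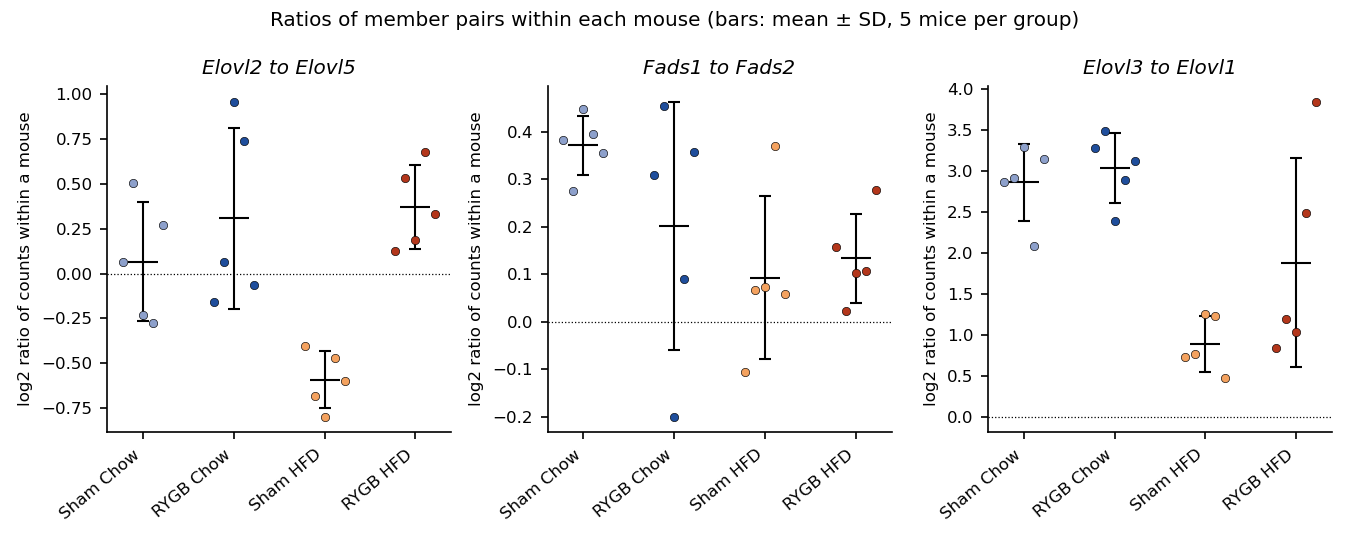
log2 ratio of counts within each mouse for Elovl2 to Elovl5, Fads1 to Fads2 and Elovl3 to Elovl1, with points for mice and bars for mean ± SD of 5 mice. For Elovl2 to Elovl5, Sham HFD (-0.80 to -0.40) lies apart from the other 3 groups.

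Hacd3 and Tecr, which serve the cycle whichever elongase starts it, were called in no comparison by edgeR. Hacd3, the dehydratase, had between 185 and 239 CPM in the 20 mice, with group means of 203 ± 13.0 for Sham Chow, 212 ± 16.2 for RYGB Chow, 200 ± 12.7 for Sham HFD and 223 ± 11.6 for RYGB HFD (SD, n = 5 each). Its largest difference, in Sham HFD vs. RYGB HFD, was a log2 fold change of 0.16 (95% interval 0.01 to 0.30, adjusted p = 0.122), and 4 of the 5 RYGB HFD mice lay above the Sham HFD range. Tecr, the reductase of the last step, had 176 ± 19.7 CPM for Sham Chow, 162 ± 23.5 for RYGB Chow, 148 ± 11.6 for Sham HFD and 155 ± 6.67 for RYGB HFD. Its log2 fold change in Sham Chow vs. Sham HFD was -0.25 (95% interval -0.45 to -0.05, adjusted p = 0.0626), with an adjusted p of 0.0489 in DESeq2, of 0.0297 without Sham Chow replicate 1 and of 0.0479 without replicate 2.

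Fads2, the delta-6 desaturase that starts the polyunsaturated pathway, was higher on HFD in sham and in RYGB mice. Sham Chow mice had 391, 549, 478, 499 and 490 CPM and Sham HFD mice 656, 791, 733, 597 and 952, without overlap (log2 fold change 0.63, SE 0.15, adjusted p = 0.00478). RYGB Chow mice had 551, 394, 689, 519 and 438 CPM and RYGB HFD mice 725, 901, 871, 718 and 603. Here 4 of 5 RYGB HFD mice lay above the highest RYGB Chow mouse (log2 fold change 0.56, SE 0.15, adjusted p = 0.0367). This call was lost in 8 of 10 fits with 1 mouse left out, with adjusted p-values of up to 0.0978, and held without RYGB Chow replicate 3 or RYGB HFD replicate 5.

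Fads1, the delta-5 desaturase that acts after Fads2, was higher on HFD in the same 2 comparisons. RYGB Chow mice had 683, 539, 600, 553 and 561 CPM and RYGB HFD mice 808, 916, 935, 773 and 731, so that the groups did not overlap (log2 fold change 0.50, SE 0.11, adjusted p = 0.0151). This call held with each mouse left out in turn. Sham Chow mice had 511, 665, 652, 656 and 628 CPM and Sham HFD mice 610, 828, 770, 772 and 992, of which 4 lay above every Sham Chow mouse (log2 fold change 0.35, SE 0.11, adjusted p = 0.0281). Without Sham Chow replicate 1 or 5 or Sham HFD replicate 2 or 5 this adjusted p was 0.0699, 0.0529, 0.0581 and 0.0977.

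Between the surgeries, Fads1 and Fads2 were close on each diet. In Sham HFD vs. RYGB HFD the log2 fold changes were 0.07 (95% interval -0.16 to 0.30) for Fads1 and 0.03 (-0.27 to 0.34) for Fads2, and between the chow groups -0.08 (-0.31 to 0.15) and 0.11 (-0.20 to 0.41). Over the 20 mice their log2 CPM had a Pearson r of 0.89, and 0.75 for deviations from the group means, as a description of libraries that share scaling and group. The log2 ratio of Fads1 to Fads2 counts was 0.37 ± 0.06 for Sham Chow, 0.20 ± 0.26 for RYGB Chow, 0.09 ± 0.17 for Sham HFD and 0.13 ± 0.09 for RYGB HFD (SD, n = 5 each); the lowest Sham Chow mouse and the highest RYGB HFD mouse were both at 0.28.

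Fads3, the desaturase of the sphingoid base, had 27.8 ± 12.1 CPM for Sham Chow, 25.7 ± 10.2 for RYGB Chow, 44.6 ± 15.5 for Sham HFD and 30.0 ± 11.9 for RYGB HFD (SD, n = 5 each). It was called in no comparison by edgeR in all 20 mice, with overlapping groups throughout. Sham HFD was above Sham Chow by a log2 fold change of 0.69 (95% interval 0.05 to 1.33, adjusted p = 0.112), and 0.96 (adjusted p = 0.0357) without Sham Chow replicate 4, the highest mouse of that group at 46.8 CPM.

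Scd2, the stearoyl-CoA desaturase with the lowest level of the 10 members, was higher in Sham HFD than in Sham Chow. Sham Chow mice had 3.43, 4.86, 3.56, 3.93 and 3.58 CPM and Sham HFD mice 3.59, 5.78, 7.18, 7.79 and 6.18. All but replicate 1 of Sham HFD lay above Sham Chow (log2 fold change 0.66, SE 0.22, adjusted p = 0.0383). This call was lost in 8 of 10 fits with 1 mouse left out (adjusted p-values of up to 0.0992) and held without Sham Chow replicate 2 or Sham HFD replicate 1. RYGB Chow mice, at 5.88, 4.63, 10.1, 4.99 and 4.53 CPM, gave a log2 fold change of 0.64 over Sham Chow (unadjusted p = 0.00919 in edgeR, adjusted p = 0.292), which was 0.37 without replicate 3. RYGB HFD mice, from 5.36 to 7.45 CPM, overlapped both Sham HFD and RYGB Chow. Between 55 and 184 reads per mouse stood behind these values, and Scd1, with which Scd2 shares sequence, had 12157 ± 4268 CPM in Sham Chow (SD, n = 5), so reads that could belong to either gene may count here.

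Markers of other liver cells differed in the comparison in which Scd2 was called, and macrophage markers were also higher in value where Scd2 was, between the chow groups. In Sham Chow vs. Sham HFD, 6 of 7 Kupffer cell and macrophage markers (Clec4f, Adgre1, Cd68, Vsig4, Csf1r, Trem2 and Gpnmb) and 5 of 5 stellate cell markers (Lrat, Des, Dcn, Col1a1 and Reln) were called higher in Sham HFD. In that comparison 21.6% of all tested genes were called. Between the chow groups, 7 of 7 macrophage markers had log2 fold changes above 0 in RYGB Chow (median 0.82), 6 with an unadjusted p under 0.05, of which edgeR and limma-voom called 0 and DESeq2 3. The summed macrophage markers ran from 78.0 to 189 CPM in Sham Chow, 158 to 348 in RYGB Chow, 183 to 250 in Sham HFD and 160 to 291 in RYGB HFD. The summed stellate markers ran from 123 to 198 CPM in Sham Chow, 168 to 229 in RYGB Chow, 246 to 304 in Sham HFD and 174 to 270 in RYGB HFD. Each marker had more than 3 counts in at least 1 mouse, with Gpnmb down to 0 CPM in RYGB Chow, and the part of these cells in the member results was not tested. Of the remaining lists, 1 of 2 tested cholangiocyte markers (Spp1) and 1 of 1 tested adipocyte marker (Cidec, a lipid droplet protein) were called higher there, while edgeR, DESeq2 and limma-voom each called 0 of 4 endothelial markers and 0 of 1 tested T and B cell marker, with an unadjusted p under 0.05 for 1 and 0. Hepatocyte markers were called lower for 2 of 5 there, and in Sham HFD vs. RYGB HFD (16.4% of all tested genes called) higher for 4 and lower for 1 (Ttr) of 5.

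**Figure D4:**
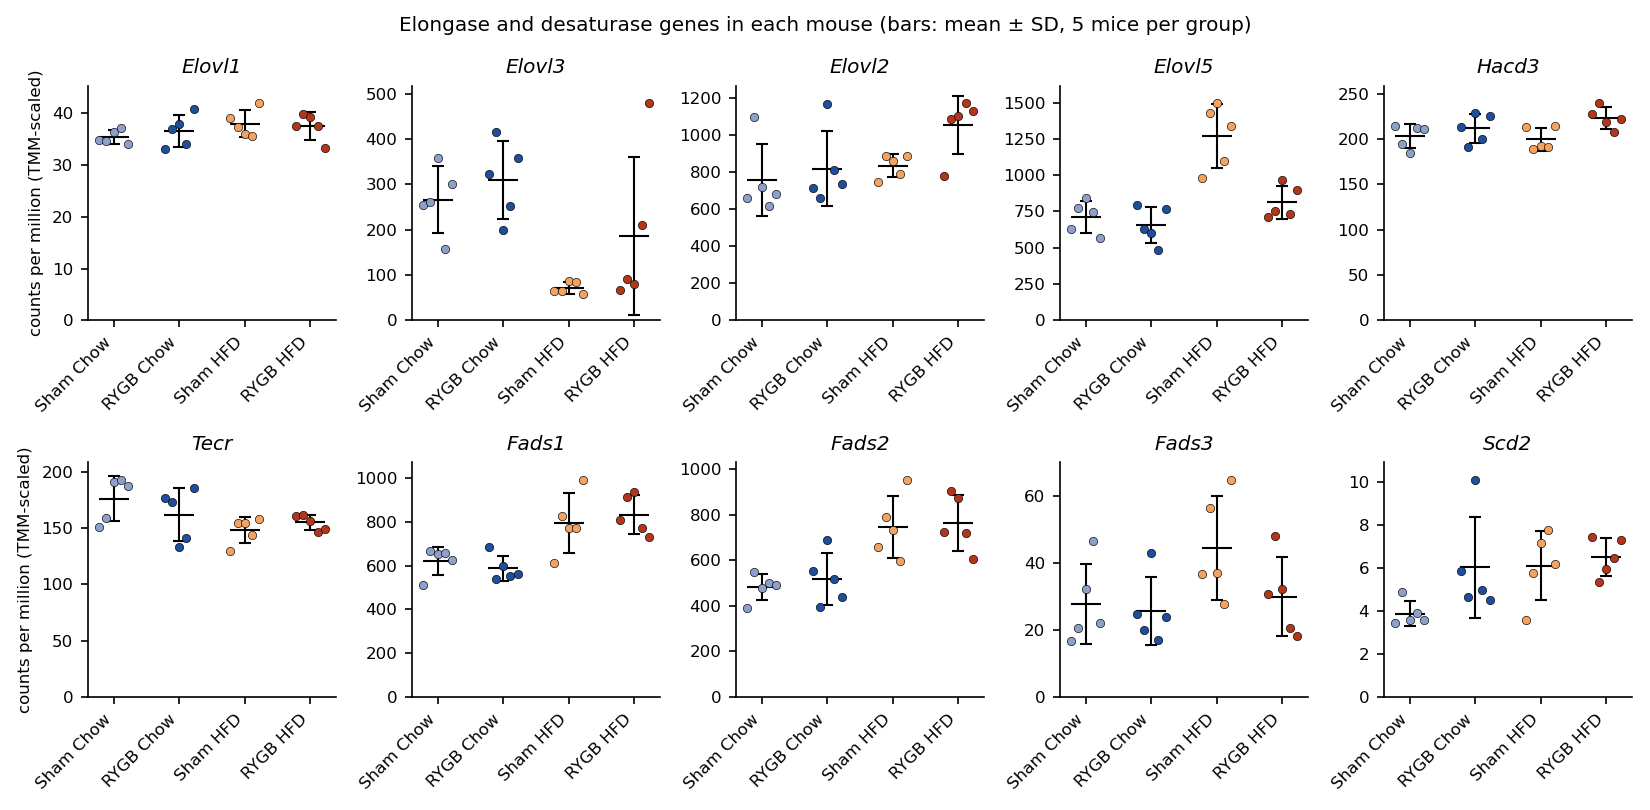
CPM of the 10 members in each of the 20 mice, with points for mice and bars for mean ± SD of 5 mice per group. Elovl5 is highest in Sham HFD (983 to 1494 CPM), Fads1 and Fads2 are higher in both HFD groups, and RYGB HFD replicates 4 and 5 stand apart for Elovl3 (211 and 478 CPM).

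Whether the diet difference was unlike in RYGB and sham mice was tested as an interaction, the diet difference of RYGB mice minus that of sham mice. At an adjusted p under 0.05, edgeR, DESeq2 and limma-voom each called 0 of the 10 members, against 5.06% of all tested genes in edgeR. An unadjusted p under 0.05 was found for 2 members. Elovl5 had an interaction of -0.52 on the log2 scale (95% interval -0.95 to -0.10, unadjusted p = 0.0180 in edgeR, adjusted p = 0.141), with 0.83 in sham and 0.31 in RYGB mice. Elovl3 had 1.17 (95% interval 0.01 to 2.33, unadjusted p = 0.0485 in edgeR, adjusted p = 0.236). For Fads1 and Fads2 the interaction was 0.15 (-0.18 to 0.48) and -0.07 (-0.51 to 0.36).

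Around the members, 67 genes of 7 pathway lists were examined, of which 56 were tested. In Sham Chow vs. Sham HFD 7 were called higher and 4 lower, in Sham HFD vs. RYGB HFD 6 higher and 8 lower, and in RYGB Chow vs. RYGB HFD 2 higher and 2 lower, with 1 higher and 3 lower in the interaction. Of all tested genes, 21.6%, 16.4%, 3.65% and 5.06% were called in these, in the same order. The counts of each list below stand beside the same shares. Between the chow groups, edgeR, DESeq2 and limma-voom each called 0 of the 56, and 6 had an unadjusted p under 0.05. Of 13 other genes of elongation and desaturation 8 were tested, and 1 was called higher and 1 lower between the sham groups, 2 lower in RYGB HFD than Sham HFD and 1 lower in RYGB HFD than RYGB Chow. Scd1, the main stearoyl-CoA desaturase of liver, fell from 12401 ± 2911 CPM in Sham HFD to 3327 ± 1916 in RYGB HFD (log2 fold change -1.90, adjusted p = 0.00160) and stood at 9293 ± 5183 in RYGB Chow (log2 fold change to RYGB HFD -1.48, adjusted p = 0.0311). Between the sham groups its log2 fold change was 0.03 (adjusted p = 0.966).

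Elovl6, which lengthens palmitate, was called in no comparison by edgeR, with RYGB HFD at a log2 fold change of -0.39 from Sham HFD (adjusted p = 0.147) and of -0.45 from RYGB Chow (adjusted p = 0.190). Hsd17b12, the reductase of the cycle's second step, was lower after RYGB than after sham surgery on HFD (log2 fold change -0.43, adjusted p = 0.00179). Of the other Hacd genes, Hacd1 was lower (-1.09, adjusted p = 0.00166) and Hacd4 higher (1.03, adjusted p = 0.0345) in Sham HFD than in Sham Chow on the log2 scale, both at mean levels of 1.46 to 7.05 CPM. Among 5 tested electron donors of the desaturases, cytochrome b5 and its reductases, edgeR called 1 in Sham HFD vs. RYGB HFD. It was Cyb5b, the outer mitochondrial form, lower after RYGB (log2 fold change -0.52, adjusted p = 0.00243). No other donor had an unadjusted p under 0.05 there. In the other 3 comparisons 0 were called by edgeR, DESeq2 or limma-voom, with an unadjusted p under 0.05 for 1 gene in each HFD against chow comparison.

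Of 6 genes that supply saturated chains, edgeR called 1 (Me1), lower in RYGB HFD in both comparisons with that group. DESeq2 called 2 of the 6 in RYGB Chow vs. RYGB HFD, where 3 had an unadjusted p under 0.05 in edgeR. In the other 2 comparisons edgeR, DESeq2 and limma-voom each called 0, with an unadjusted p under 0.05 for 1 gene between the chow groups and 0 between the sham groups. Me1, the malic enzyme that makes NADPH, was at 359 ± 76.4 CPM in Sham HFD, 271 ± 75.5 in RYGB Chow and 86.8 ± 16.8 in RYGB HFD (SD, n = 5 each), with RYGB HFD at a log2 fold change of -2.05 from Sham HFD (adjusted p = 2.27e-06) and of -1.64 from RYGB Chow (adjusted p = 6.49e-05). Its interaction of -1.88 was called as well (adjusted p = 7.7e-04). Fasn, fatty acid synthase, was at 0.57 (adjusted p = 0.205) and 0.71 (adjusted p = 0.203) in these comparisons, and Acaca, the acetyl-CoA carboxylase that makes malonyl-CoA, at 0.20 (adjusted p = 0.459) and -0.06 (adjusted p = 0.897), all log2 fold changes.

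Of 10 peroxisomal genes for the last step to docosahexaenoic acid, 4 were called higher in Sham Chow vs. Sham HFD and 4 lower in Sham HFD vs. RYGB HFD. In RYGB Chow vs. RYGB HFD edgeR called 0, limma-voom 1 and DESeq2 3, with an unadjusted p under 0.05 for 6. Among those called in the first 2 comparisons, Hsd17b4, the bifunctional enzyme, was at 0.30 (adjusted p = 0.00767) and -0.46 (adjusted p = 2.6e-04) in these comparisons, and Abcd2, a peroxisomal carrier of fatty acyl chains, at 1.13 (adjusted p = 0.0116) and -1.10 (adjusted p = 0.0158), in log2 units. Scp2 was higher in the diet comparison (0.20, adjusted p = 0.0493) and the thiolase Acaa1b lower in the surgery comparison (-0.78, adjusted p = 8.0e-04). Of 10 tested genes for activating fatty acids and placing them in phospholipids, Agpat2 was higher in Sham HFD than in Sham Chow (0.28, adjusted p = 0.0108) and Acsl4, which prefers arachidonate, higher in RYGB HFD than in Sham HFD (0.38, adjusted p = 0.0271). Of 4 tested ceramide synthases, edgeR, DESeq2 and limma-voom each called 0 in each comparison, and an unadjusted p under 0.05 was found for 1 between the chow groups and 1 between the sham groups.

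Of 13 regulators, 1 was called higher and 3 lower from Sham Chow to Sham HFD, 5 higher from Sham HFD to RYGB HFD and 2 higher from RYGB Chow to RYGB HFD. Srebf1 was higher on HFD in the 2 comparisons in which Fads1 and Fads2 were. It had 209 ± 48.3 CPM for Sham Chow, 213 ± 27.0 for RYGB Chow, 400 ± 54.9 for Sham HFD and 370 ± 135 for RYGB HFD (SD, n = 5 each), with log2 fold changes of 0.93 in sham (adjusted p = 0.00321) and 0.80 in RYGB mice (adjusted p = 0.0342). Elovl5 and Scd2 were called higher in the sham comparison only. The log2 fold changes on HFD in sham and RYGB mice were 0.03 and -1.48 for Scd1, and 0.14 and -0.45 for Elovl6. The part of Srebf1 in the member results was not tested. Scap, which carries SREBP proteins to the Golgi, was lower in Sham HFD than in Sham Chow (-0.33, adjusted p = 0.00940) and higher in RYGB HFD than in Sham HFD (0.64, adjusted p = 3.9e-05) and in RYGB Chow (0.33, adjusted p = 0.0362), and its interaction of 0.66 was called (adjusted p = 0.00388). Mlxipl, the carbohydrate response factor ChREBP, and the hepatocyte factor Hnf4a were lower in Sham HFD than in Sham Chow (at -0.32 with an adjusted p of 0.0240, and at -0.43 with 0.0267) and higher in RYGB HFD than in Sham HFD (0.46, adjusted p = 0.00258, and 0.49, adjusted p = 0.0166). Srebf2 was higher in that surgery comparison too (0.47, adjusted p = 0.0240). Ppara, the fatty acid receptor, and Nr1h3, the oxysterol receptor LXR alpha, were called in no comparison by edgeR, with adjusted p-values of 0.0643 or more for Ppara and 0.221 or more for Nr1h3. DESeq2 called 5 of the 13 regulators in Sham Chow vs. Sham HFD in place of 4, and 3 in place of 2 in RYGB Chow vs. RYGB HFD.

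**Figure D5:**
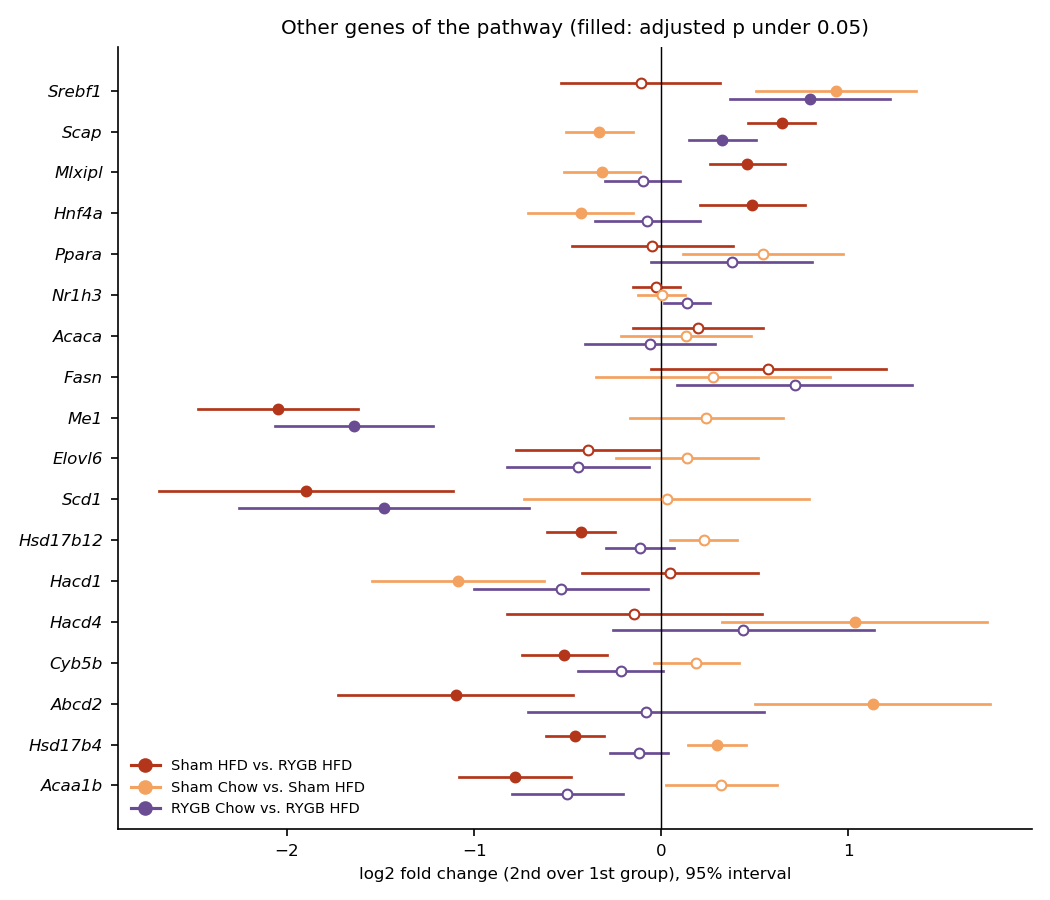
log2 fold change with 95% interval of other genes of the pathway in the 3 comparisons with HFD mice, filled where the adjusted p is under 0.05. Scd1 and Me1 lie far below 0 in both comparisons with RYGB HFD as the second group, and Srebf1 lies above 0 in both diet comparisons.

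For each member, the tested gene outside the list whose log2 CPM had the highest Pearson r with it over the 20 mice was looked up, as a description of libraries that share group and scaling. Elovl3 was most like Pitx3 (r = 0.97, and 0.92 for deviations from the group means), a gene on the opposite strand that shares 10 exon bases with it and had 1943 counts in all against 76343 of Elovl3. The libraries keep strand, but whether the counting used it is not given in the sources used here, so reads of the 2 genes may not be told apart. Elovl5 was most like Pcx, pyruvate carboxylase (0.90 and 0.63), Tecr like Faah, a fatty acid amide hydrolase (0.88 and 0.86), Fads2 like Myo9b (0.87 and 0.72) and Fads1 like Dntt (0.86 and 0.73). Fads3 was most like Ctf1 (0.84 and 0.78), Scd2 like Agpat3, an acyltransferase of phospholipid synthesis (0.83 and 0.77), Elovl1 like Nmi (0.81 and 0.80), Hacd3 like the citrate carrier Slc13a5 (0.79 and 0.69) and Elovl2 like Crebzf (0.78 and 0.66). Among pairs of members, Fads1 and Fads2 had the highest r, and the lowest was that of Elovl3 with Fads2 (-0.77, and -0.57 for the deviations).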

How the data were processed

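Poly-A RNA of 20 livers was sequenced from strand-keeping libraries. Raw counts, made by the authors with Trimmomatic 0.36 for trimming and HISAT2 2.1.0 for alignment to mm10, were deposited as numbers of reads per gene from featureCounts 1.5.0-p3, without normalization. The annotation release, the strand setting and the handling of reads with several matches are not given in the sources used here. Groups came from the sample titles, and of the 20 count columns 0 stayed unmapped and 0 were identical to another. GENCODE M21 gave symbols and positions (54495 of 54532 genes matched). Counts are reads without molecular identifiers, so depth covers counting error only.

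Genes that reached 2 CPM in 3 or more mice entered edgeR 4.0.16 (R 4.3.3) and its quasi-likelihood test on TMM-normalized counts, two-sided, in a single model of the 4 groups, with Benjamini-Hochberg adjustment. Intervals are 95% intervals from that model. The biological coefficient of variation was 0.181. CPM values are TMM-scaled, and log2 values for exact permutation tests and correlations used CPM + 0.5. With 5 mice against 5, the smallest p an exact permutation test can give is 0.00794. Alternatives were DESeq2 1.42.0, limma-voom 3.58.1, scaling by RLE factors or by library size only, dropping the filter or raising it to 5 CPM, models of only the 2 groups compared, the replicate number as a block, leaving out each mouse in turn, and, for levels per length, the longest transcript in place of all exons. The procedure was tested on simulated data. Python 3.11.15 was used for tables and plots.

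Named are all 10 members, the genes of each pathway list that were called (at most the 4 with the smallest p in a comparison), Scd1, Elovl6, Fasn, Acaca, Srebf1, Ppara and Nr1h3 in any case, and the gene most like each member. The members and the lists were chosen with earlier results of these data known. Lists are described by counts, with no test of the list. A called gene of the lists is not reported here.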

Additional observations from a re-analysis of the deposited data

Results flagged for a closer look

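In 40 combinations of a member and a group, 4 mice stood apart from the other mice of their group by Dixon's criterion, which chance meets in about 1 in 20 groups. For Elovl2, Sham Chow replicate 2 was high at 1095 CPM, where the other 4 mice had between 616 and 719 CPM. Also for Elovl2, RYGB HFD replicate 1 was low at 779 CPM, below the 1087 to 1169 CPM of the others. For Fads1, Sham Chow replicate 1 was low at 511 CPM, and for Scd2, RYGB Chow replicate 3 was high at 10.1 CPM. RYGB Chow replicate 3 was also the highest of its group for Elovl2 (1165 CPM), Fads2 (689), Fads3 (43.1) and Hacd3 (229). It was the lowest for Elovl3 (198 CPM) and Tecr (133), and its TMM factor of 1.13 was the highest of all mice. Elovl3 in RYGB HFD (67.2 to 478 CPM) was not among the 4 flagged cases, since its replicates 4 and 5 both lie away from the rest.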

How the results depend on the processing

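Limits: 5 mice a group, and 55 to 184 counts per mouse for Scd2. The Sham Chow vs. RYGB Chow count of 0 members was the same in every alternative run. In Sham HFD vs. RYGB HFD, 1 member in place of 2 was called with limma-voom and with the replicate block, where Elovl3 lost its call (adjusted p = 0.0824 and 0.0687). With only the 2 groups compared the count was 2 there, but Elovl3 lost its call (0.0527) and Elovl2 gained one (0.0383). In Sham Chow vs. Sham HFD, 3 in place of 5 were called without a filter, where Fads1 (0.0501) and Scd2 (0.0574) were lost, while Elovl1 gained a call with library size only (0.0451) and Tecr with DESeq2 (0.0489). In RYGB Chow vs. RYGB HFD, 1 in place of 2 was called with library size only, with only the 2 groups compared and with the replicate block, where Fads2 was lost (0.0884, 0.0982 and 0.0559). In the interaction, 1 in place of 0 was called with library size only (Elovl5, adjusted p = 0.0469).

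Library size only moved the median of all genes to 0.12 in Sham Chow vs. Sham HFD and to -0.13 in the interaction, and the share of calls that were higher from 50.3% to 80.4%, from 49.0% to 20.2%, and in Sham HFD vs. RYGB HFD from 52.0% to 26.6%. Values near 0 changed sign with it: in Sham HFD vs. RYGB HFD Fads1 to -0.0249, Fads2 to -0.0577, Scd2 to -0.0045 and Tecr to -0.0259, in Sham Chow vs. Sham HFD Hacd3 to 0.10, and in the interaction Hacd3 to -0.0457.

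With each mouse left out, the number of members called ran from 1 to 2 in Sham HFD vs. RYGB HFD, 3 to 6 in Sham Chow vs. Sham HFD and 1 to 3 in RYGB Chow vs. RYGB HFD, and stayed at 0 in the other comparison and the interaction. Signs changed for uncalled values. In Sham Chow vs. RYGB Chow the log2 fold change ran from -0.0487 to 0.29 for Elovl2, -0.0180 to 0.19 for Fads2 and -0.37 to 0.16 for Fads3. The low ends for Elovl2, Fads2 and Fads3 there all came without RYGB Chow replicate 3. In Sham HFD vs. RYGB HFD the log2 fold change ran from -0.0488 to 0.0230 for Elovl1, -0.0221 to 0.16 for Fads1, -0.0412 to 0.14 for Fads2 and -0.0571 to 0.19 for Scd2. In RYGB Chow vs. RYGB HFD it ran from -0.0136 to 0.49 for Fads3, and in the interaction from -0.159 to 0.0438 for Fads2.

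Mice of different groups share replicate numbers, whose meaning the labels do not give. Deviations of same-numbered mice from their group means correlated between -0.26 and 0.17, over 0.1 in 5 of 20 pairs, so the numbers were not taken to pair mice. With the replicate block, 4 in place of 5 members were called in Sham Chow vs. Sham HFD and 0 in the interaction. Per length, the longest transcript in place of all exons raised the levels most for Elovl1, Elovl5, Fads1 and Tecr and changed the order of the highest members in each group.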
